A study of Mus musculus with 4 samples.

Results

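A set of 7 alpha-defensin genes, picked for prevailing in Paneth cells of control mice, was examined in single-cell RNA libraries of the mouse duodenal crypt. The genes are Defa30, Defa36, Defa23, Defa26, Defa21, Defa22 and Defa20. They were chosen from levels in the Paneth cells of WT in earlier work on these data, and listed by symbol. By level alone they did not all lead there, since Defa24 and Defa17, at means of 250192 and 20065 counts per 1000000 UMIs (captured transcripts) in WT, exceeded 7 and 6 of them. They are 7 of the 22 genes named Defa with a number, and 7 of the 31053 genes in the matrices. Their level in Paneth cells of either genotype is therefore what chose them. It is given as a description, and nothing is read from the fit of the Paneth lineage that holds the same cells.

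Mice of 2 genotypes, named WT and APC-KO, gave 2 libraries each. WT mice carried Atoh1CreER-T2, a tamoxifen-inducible Cre recombinase under Atoh1, which secretory progenitors express, together with the red reporter allele R26RTom. APC-KO mice also carried floxed alleles of Apc, a brake on Wnt signalling, and their labels write the driver as Atoh1Cre where the series design writes Atoh1CreER-T2 for both. All mice had 2 tamoxifen doses of 1 mg/mL, spaced by 24 h, and crypts were taken 12 h after the second. TOM+ DAPI- cells of the duodenum were sorted, so the sort decided which cells could be sampled. The labels give no strain, age, sex, animal or batch for a library, so the spread between libraries may be technical in part.

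Paneth cells sit at the base of small-intestinal crypts and release granules of antimicrobial proteins into the lumen. Alpha-defensins are among the main granule products. In the mouse they are made as precursors that the protease Mmp7 cleaves into short peptides folded by disulfide bonds between 6 cysteines, and genes of the cluster lie close together in many similar copies. Wnt signalling acting through Tcf7l2 is known to sustain the Paneth programme.

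The end of each coding sequence, which lies in exon 2 and carries the mature peptide, shows how alike the genes are. The lines below run 5′ to 3′ from the start of exon 2 to the last codon before the stop, in GENCODE vM21 gene models on GRCm38, with the 6 cysteine codons in capitals. Defa24 and Defa35 are not among the 7 and are shown because 1 is the most abundant gene of the family here and the other is the near copy of Defa36.
Defa30: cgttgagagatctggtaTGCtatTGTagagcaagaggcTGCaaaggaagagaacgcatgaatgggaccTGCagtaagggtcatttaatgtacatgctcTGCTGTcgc
Defa24: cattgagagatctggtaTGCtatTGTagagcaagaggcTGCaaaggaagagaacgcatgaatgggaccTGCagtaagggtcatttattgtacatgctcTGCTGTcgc
Defa23: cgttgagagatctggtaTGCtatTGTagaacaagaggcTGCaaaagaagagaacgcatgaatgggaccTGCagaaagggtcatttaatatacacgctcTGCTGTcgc
Defa26: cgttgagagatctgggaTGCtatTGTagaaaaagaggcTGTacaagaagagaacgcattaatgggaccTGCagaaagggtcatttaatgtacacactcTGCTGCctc
Defa36: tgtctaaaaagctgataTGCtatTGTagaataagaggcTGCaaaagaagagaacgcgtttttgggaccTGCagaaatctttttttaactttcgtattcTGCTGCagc
Defa35: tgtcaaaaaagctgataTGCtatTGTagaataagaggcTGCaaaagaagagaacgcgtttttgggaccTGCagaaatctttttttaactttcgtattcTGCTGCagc
Defa21: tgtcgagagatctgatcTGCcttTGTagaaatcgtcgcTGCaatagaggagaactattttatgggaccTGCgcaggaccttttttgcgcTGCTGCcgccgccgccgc
Defa22: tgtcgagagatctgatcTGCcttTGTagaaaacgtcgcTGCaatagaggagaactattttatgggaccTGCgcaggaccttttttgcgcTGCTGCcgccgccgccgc
Defa20: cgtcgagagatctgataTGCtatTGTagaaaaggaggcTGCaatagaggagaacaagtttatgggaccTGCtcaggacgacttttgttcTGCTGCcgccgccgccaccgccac
All 9 sequences hold 6 cysteine codons. Over the whole coding sequence the 21 pairs among the 7 genes were 80.9% to 99.3% identical, with a median of 83.2%. Defa21 and Defa22 formed the closest pair, with 2 differing positions of 279. Defa30 differed from Defa24 at 4 positions and Defa36 from Defa35 at 3. Defa23, Defa36 and Defa20 were identical in coding sequence to Defa31, Defa37 and Defa32, in that order.

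All 7 genes lie on the plus strand of chromosome 8 with 2 exons each (GRCm38). From low to high coordinates, Defa21 (ENSMUSG00000074447) spans 21025545 to 21026516, Defa23 (ENSMUSG00000074446) spans 21055047 to 21056016, and Defa30 (ENSMUSG00000074444) spans 21134642 to 21135598. Defa22 (ENSMUSG00000074443) spans 21162277 to 21163249 and Defa36 (ENSMUSG00000094662) spans 21427411 to 21428391. Defa20 (ENSMUSG00000095066) spans 21509258 to 21510237 and Defa26 (ENSMUSG00000060070) spans 21618183 to 21618972. Reads can be assigned to a gene only where its sequence is its own, and how reads shared between copies were counted is not stated in the labels. Of all windows of 90 bases in the spliced transcript, 95.5% were found in no other gene for Defa30 and 95.4% for Defa26. The share was 54.8% for Defa22 and 54.7% for Defa21, but 10.6% for Defa23, 5.14% for Defa36 and 0.298% for Defa20. The kit reads from the 3′ end, and of the last 100 windows those found in no other gene numbered 100 for Defa30, 87 for Defa26, 18 for Defa21, 18 for Defa22, 1 for Defa20, 0 for Defa23 and 0 for Defa36. Single-gene counts other than those of Defa30 and Defa26 are therefore uncertain, and part of the transcripts may have gone uncounted or to a copy, which for Defa21 and Defa22 is the other gene of the pair.

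The libraries held 54230249 to 61032126 UMIs, where a UMI marks a captured transcript. The authors' tables kept 4814 and 3821 cells in the WT libraries and 356 and 6243 in APC-KO replicates 1 and 2. Cells named PANETH in those tables numbered 106, 200, 16 and 274 in the same order, and cells named PANETH-PRE numbered 122, 98, 11 and 602. Paneth markers other than defensins (Lyz1, Mmp7, Ang4, Itln1, Mptx1, Mptx2 and Pla2g2a, of which 6 were found) summed to 70193 to 152097 counts per 1000000 UMIs (CPM) in PANETH cells. The 7 goblet markers summed to 18873 to 30838 CPM in 3 of the libraries and to 76984 CPM in APC-KO replicate 2. The 6 enterocyte markers summed to 56.9 and 38.6 CPM in WT and to 658 and 172 in APC-KO, and the 4 immune markers to 112 and 135 CPM in WT and to 271 and 364 in APC-KO. The part of these other markers in the levels of the 7 genes was not tested. Col1a1 and Col3a1, markers of stroma, were at 0. Libraries shared 1 to 8 cell barcodes per pair. Levels below are CPM of the summed UMIs of a cell type, not scaled by transcript length, which ranges from 372 to 425 bases over the 7 genes.

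Alpha-defensin transcripts made up a large part of all RNA counted in PANETH cells. The 22 Defa genes held 46.1% and 41.8% of UMIs in WT replicates 1 and 2, and 42.8% and 31.9% in APC-KO replicates 1 and 2. The 7 genes held 34.4% and 39.1% of those alpha-defensin UMIs in WT, 34.2% in APC-KO replicate 1 and 20.2% in APC-KO replicate 2. Only APC-KO replicate 2 lay far from the others. The exact 95% binomial interval of each share, which covers counting error alone, was within 0.4 percentage points of its value.

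Defa30 dominated the set. It had 137846 and 155837 CPM in the PANETH cells of WT replicates 1 and 2, and 134349 and 64052 CPM in those of APC-KO replicates 1 and 2. APC-KO replicate 1 was just below the WT values, with a WT mean 1.09 times its level, and replicate 2 was lower, with a WT mean 2.29 times its level.

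Defa36, the near copy of Defa35, stood at 7628 and 2058 CPM in WT and at 7437 and 102 in APC-KO. Defa23, whose coding sequence is that of Defa31, had 3456 and 1992 CPM in WT and 3509 and 6.50 in APC-KO. For both genes APC-KO replicate 1 stood at the level of WT replicate 1, while APC-KO replicate 2 had almost none. The WT mean was 47.5 times the APC-KO replicate 2 value for Defa36 and 419 times for Defa23, which there rested on 12 UMIs. The groups overlapped for these 2 genes.

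Defa26 had 2596 and 2115 CPM in WT, the smallest spread between WT libraries after that of Defa30, and 652 and 108 CPM in APC-KO. Defa21 stood at 3029 and 632 CPM in WT and at 470 and 87.8 in APC-KO. Defa22, its closest copy, had 3970 and 551 CPM in WT and 127 and 49.3 in APC-KO. Both APC-KO libraries were below both WT libraries for these 3 genes, but WT replicate 1 exceeded WT replicate 2 by 4.79 times for Defa21 and 7.20 times for Defa22.

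Defa20, the scarcest of the 7, had 104.3 and 21.7 CPM in WT, from 154 and 45 UMIs. It had 0 UMIs in APC-KO replicate 1, where 3 UMIs would be 16.6 CPM, and 2.71 CPM from 5 UMIs in replicate 2. The WT mean was at least 3.80-fold higher than APC-KO replicate 1, against that floor of 3 UMIs in the library, and 23.3 times APC-KO replicate 2.

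**Figure D1:**
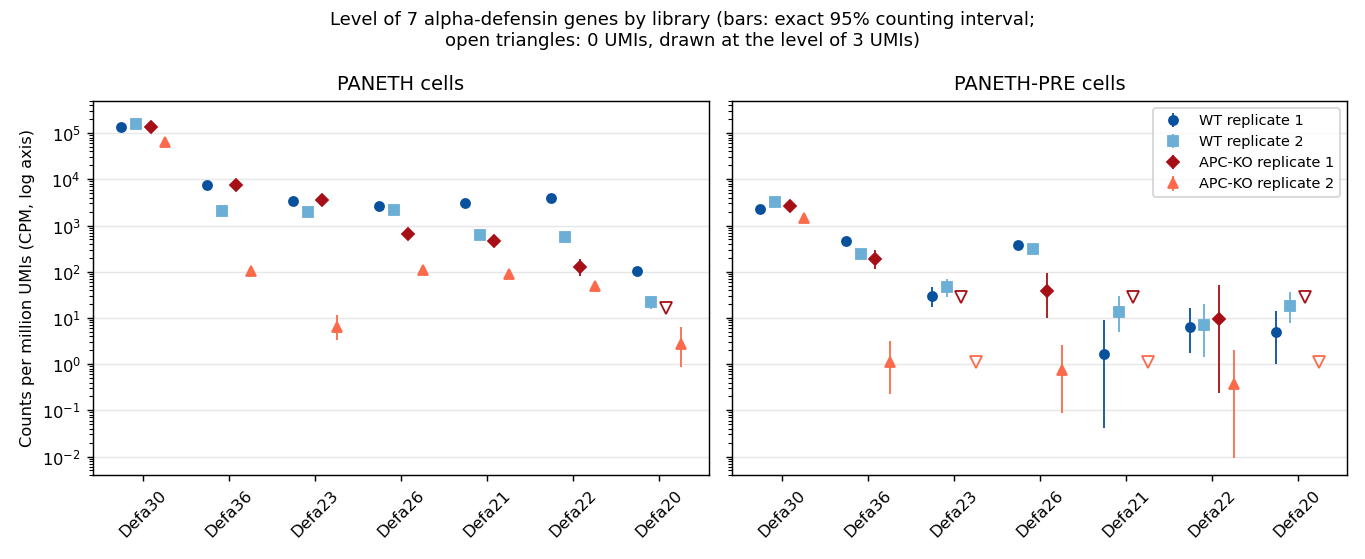
Level of each gene in UMIs per 1e6 UMIs (log axis) in PANETH cells (left) and PANETH-PRE cells (right), 1 point per library with its exact 95% counting interval; open triangles mark 0 UMIs and are drawn at the level of 3 UMIs. In PANETH cells APC-KO replicate 1 lies among or near the WT points for Defa30, Defa36 and Defa23, and APC-KO replicate 2 is the lowest measured point for all 7 genes except Defa20, where replicate 1 had 0 UMIs.

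The order of the genes by level differed between libraries. In WT replicate 1 it ran Defa30, Defa36, Defa22, Defa23, Defa21, Defa26, Defa20, and in WT replicate 2 Defa30, Defa26, Defa36, Defa23, Defa21, Defa22, Defa20. Defa30 was first and Defa20 last in both, and the order of the 5 genes between them differed between the WT libraries. In APC-KO replicate 2 Defa30 was 64052 CPM of the 64408 CPM summed over the set. The sum was 158629 and 163206 CPM in WT, with a mean of 160918 ± 3236 (SD, n = 2), and 146543 CPM in APC-KO replicate 1.

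When PANETH and PANETH-PRE cells were summed per library into a Paneth lineage, both APC-KO libraries were below both WT libraries for 5 of the 7 genes, all but Defa23 and Defa36. Of all genes tested there, 2.72% had such a fall without overlap. edgeR's quasi-likelihood test called 2 of the 7, both lower in APC-KO, against 0.663% of all genes in either direction. Since this contrast chose the genes, nothing is read from these counts. The log2 differences in the fit were -6.21 (SE 0.82) for Defa20, -5.71 (SE 1.01) for Defa22, -3.46 (SE 0.97) for Defa21 and -3.39 (SE 0.88) for Defa26. They were -1.37 (SE 0.74) for Defa30, -1.16 (SE 1.51) for Defa23 and -0.86 (SE 1.31) for Defa36. Without APC-KO replicate 1 all 7 were called, among 461 of all genes, and without APC-KO replicate 2 there were 4, among 113. Without WT replicate 1 none was, with 0 called of all genes and 644 at an unadjusted p under 0.05, and without WT replicate 2 Defa20 was the 1 gene called of all. The value of Defa36 turned to 0.15 without APC-KO replicate 2 and to 0.19 without WT replicate 1.

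The rest of the family, here the other genes named Defa with a number, gave the alpha-defensin UMIs that the 7 genes did not hold. Defa24, the gene nearest to Defa30 in sequence, held 59.4% and 54.2% of alpha-defensin UMIs in the PANETH cells of WT and 57.1% and 60.4% in those of APC-KO. Defa17 held 4.00% and 5.19% in WT and 1.62% and 5.84% in APC-KO, and Defa3 held 0.788% in APC-KO replicate 2 and 0.623% to 1.51% in the others. Defa29 and Defa35 held larger shares in both APC-KO libraries than in both WT libraries. Defa29 held 1.10% and 0.799% in WT and 4.59% and 7.88% in APC-KO, and Defa35 held 0.00720% and 0.00382% in WT and 0.667% and 3.43% in APC-KO. Of the other Defa genes, 10 had at least 20 UMIs in PANETH cells. APC-KO lay above WT for 3 of them, Defa35, Defa27 and Defa29, and below it for none. In the Paneth lineage the same 3 lay above and 2 of the 10, Defa17 and Defa24, lay below. In PANETH-PRE cells 1 of 9, Defa29, lay above and 2, Defa17 and Defa34, lay below. Of the 7 genes, 5 lay below WT in PANETH cells. They were chosen from levels in Paneth cells, so nothing is read from their contrast with the other Defa genes. The share of all genes with a fall without overlap, 2.72%, was taken for the Paneth lineage only.

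**Figure D2:**
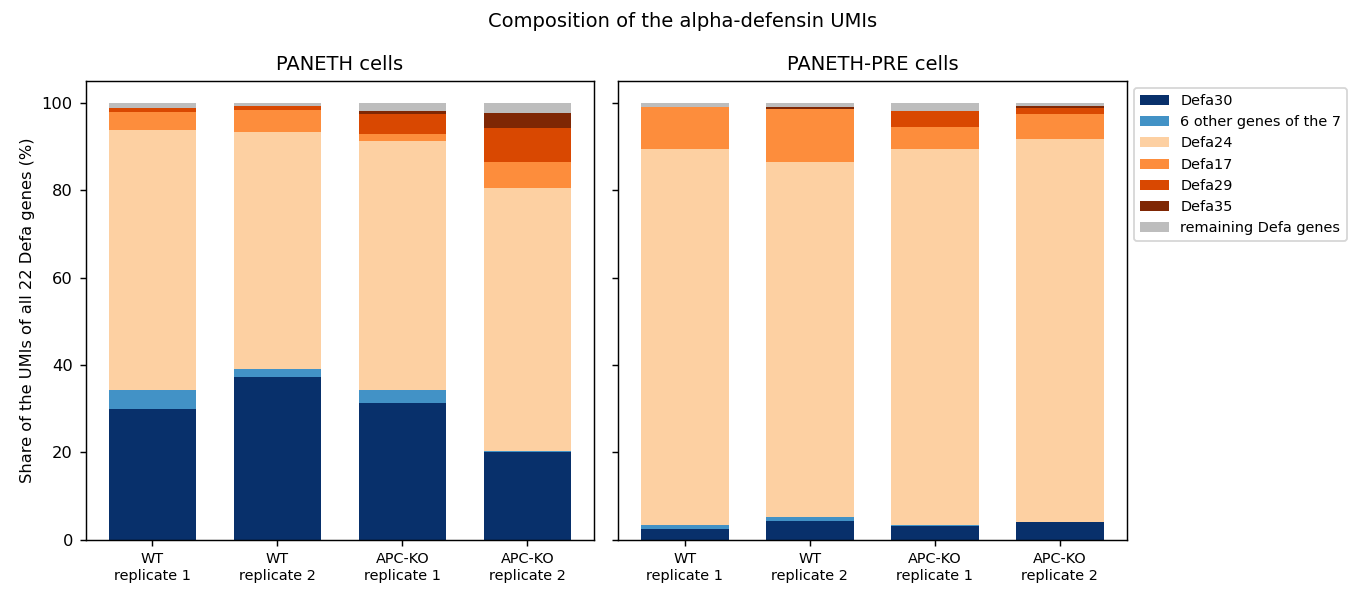
Share of the UMIs of all 22 Defa genes (percent) held by each gene or group, 1 stacked bar per library, in PANETH cells (left) and PANETH-PRE cells (right). The blue segments, Defa30 and the 6 other genes of the set, end at 34.4%, 39.1%, 34.2% and 20.2% in PANETH cells and at 3.27% to 5.24% in PANETH-PRE cells.

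Defa30 and Defa24, 98.6% identical in coding sequence, kept different proportions by library and by stage. Defa30 had 0.503 and 0.689 UMIs per UMI of Defa24 in the PANETH cells of WT, and 0.549 and 0.333 in those of APC-KO. In PANETH-PRE cells the ratio was 0.0274 and 0.0540 in WT and 0.0371 and 0.0475 in APC-KO. The ratio was thus lower in PANETH-PRE than in PANETH cells in each of the 4 libraries, and in PANETH-PRE cells the genotypes overlapped. Every window of 90 bases of Defa24 was found in no other gene, so the counts of this pair rest on separable sequence.

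Defa36 and its near copy Defa35 differed in proportion between the libraries. In PANETH cells there were 11258 UMIs of Defa36 and 49 of Defa35 in WT replicate 1, and 4259 and 33 in WT replicate 2. APC-KO replicate 1 had 1346 of Defa36 and 517 of Defa35, and APC-KO replicate 2 had 188 and 20153. Defa36 thus made up 99.6%, 99.2%, 72.2% and 0.924% of the pair, with APC-KO replicate 1 between WT and APC-KO replicate 2. The last 100 windows of Defa36 all recur in other genes, against 57 of the last 100 of Defa35 that are its own, so a part of either count may belong to the other or to Defa34, Defa37 or Defa5.

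The same proportions held cell by cell. Among PANETH cells with at least 5 UMIs of the pair, Defa36 exceeded 90% of it in 106 of 106 cells of WT replicate 1 and in 180 of 182 cells of WT replicate 2. It was under 10% in 208 of 210 cells of APC-KO replicate 2. In APC-KO replicate 1 all 5 such cells lay between, from 48.3% to 80.6%, with a median of 69.9%. Each of these 5 cells held UMIs of both copies.

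**Figure D3:**
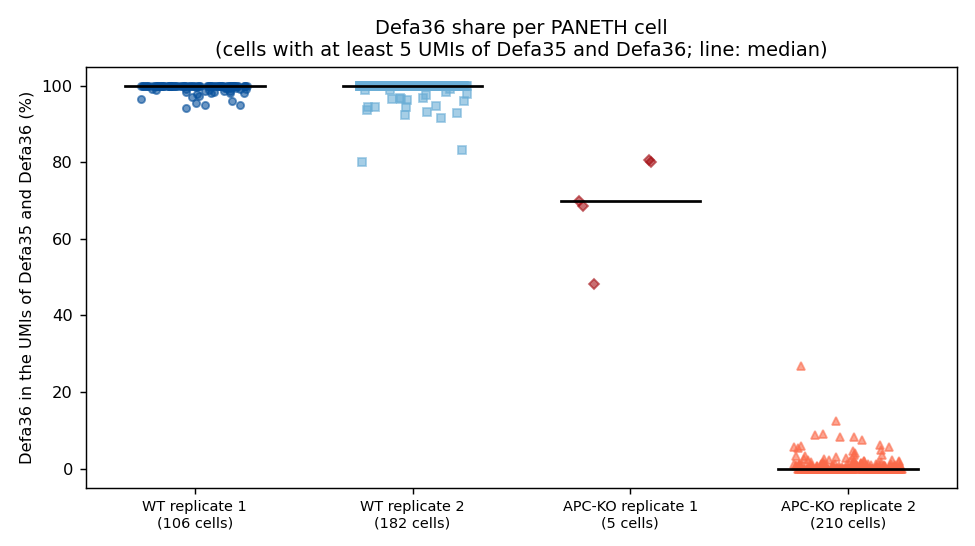
Share of Defa36 in the UMIs of Defa35 and Defa36 (percent) in each PANETH cell with at least 5 UMIs of the pair, by library, with the median as a line. Cells of the WT libraries lie at 80.0% or more, the 5 cells of APC-KO replicate 1 from 48.3% to 80.6%, and cells of APC-KO replicate 2 at 26.7% or less.

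The promoters of the pair are shown because the proportion of these near copies differed between WT and each APC-KO library, although the level of Defa36 itself was below both WT libraries in APC-KO replicate 2 alone. The 250 bases before the RefSeq start (GRCm38.p6, plus strand) are chr8:21427178-21427427 for Defa36 and chr8:21064788-21065037 for Defa35, with capitals for TATAAA on the strand of the gene and for TCAAAG on either strand (CTTTGA on the other), the core of the sequence that TCF factors bind. These motifs do not overlap in the promoters shown.
Defa36: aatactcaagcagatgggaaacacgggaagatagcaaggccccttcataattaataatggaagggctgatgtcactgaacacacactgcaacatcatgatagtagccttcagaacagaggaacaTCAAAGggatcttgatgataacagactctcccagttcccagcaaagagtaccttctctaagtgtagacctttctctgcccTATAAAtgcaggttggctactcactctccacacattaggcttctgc
Defa35: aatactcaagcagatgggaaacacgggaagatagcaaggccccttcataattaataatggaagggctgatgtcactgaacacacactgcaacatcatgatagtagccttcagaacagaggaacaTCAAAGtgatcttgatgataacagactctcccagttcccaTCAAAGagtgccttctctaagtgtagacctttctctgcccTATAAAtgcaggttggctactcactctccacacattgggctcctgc
The promoters differed at 5 of 250 positions. Defa35 held 2 matches of TCAAAG, 126 and 86 bases before the start, and Defa36 held only the match 126 bases before it. Promoters of 6 of the 7 genes were matched, all but that of Defa26. All 6 held TATAAA, as did 7.59% of 32851 promoters of the same length. Each of the 6 held TCAAAG, as did 13.8% of all promoters. Defa21, Defa22, Defa23 and Defa20 held 2 matches, where 1.37% of all promoters held 2 or more. Outside the set, the matched promoters of Defa35, Defa31, Defa2, Defa32, Defa37 and Defa28 each held TCAAAG too, and all but Defa28 held TATAAA. Of these, Defa35, Defa31, Defa2 and Defa32 held 2 matches of TCAAAG. The motifs are thus not particular to the 7 genes. The promoters of Defa21 and Defa22 were identical in the window. A match is a string of letters and does not show binding.

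Within WT libraries the 7 genes were not spread alike over PANETH cells. Defa30 and Defa36 had a UMI in all 106 and all 200 cells, and Defa26 in 98.1% and 99.5% of them. Defa23 had a UMI in 102 and 197 cells, Defa21 in 76 and 151, Defa22 in 87 and 139 and Defa20 in 20 and 21. In TUFT cells, which should lack defensins, shares were 3.46% and 3.25% for Defa22 and 4.76% and 3.25% for Defa21, at median depths of 3879 and 4643 UMIs against 12643.5 and 10371.5 in PANETH cells. With every cell thinned to 2000 UMIs, Defa22 was found in 68.9% and 44.0% of PANETH cells and Defa21 in 54.7% and 47.5%, against at most 3.29% of TUFT cells for either gene.

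Defa20, Defa21 and Defa22 were concentrated in few cells. In WT replicate 1, 50% of the UMIs of Defa22 lay in 5 of the 106 cells, of Defa20 in 5 and of Defa21 in 8. The same share took 17 cells for Defa36, 23 for Defa23, 25 for Defa30, 27 for Defa26 and 30 for Defa24. In WT replicate 2 it took 5 of 200 cells for Defa20, 16 for Defa22 and 19 for Defa21, and 43 to 60 cells for the other 4 genes of the set. The same 3 genes were the most concentrated in both WT libraries. A single cell held 20.9% of all Defa22 UMIs of WT replicate 1, and the 11 cells with the most held 70.4%.

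**Figure D4:**
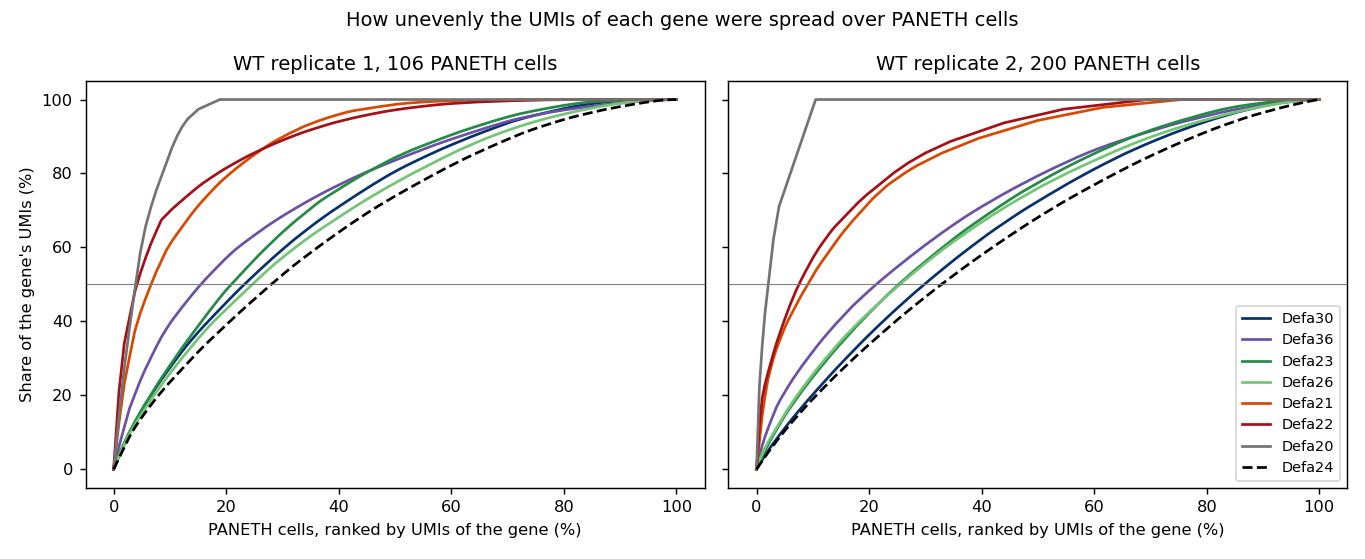
Cumulative share of the UMIs of each gene (percent) over PANETH cells ranked by their UMIs of that gene (percent of cells), in WT replicate 1 (106 cells) and WT replicate 2 (200 cells); the grey line marks 50%. Curves of Defa20, Defa22 and Defa21 rise steepest in both libraries, and the dashed curve of Defa24 is the flattest.

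The same measures in APC-KO rest on other numbers of cells. In APC-KO replicate 1, 6 of the 16 PANETH cells had 10% or more of their UMIs in Defa genes and held 99.7% of the UMIs of the 7 genes. The other 10 had 0.624% to 1.08% of their UMIs in Defa genes and 85 UMIs of the set in all, so the name PANETH was not borne out by defensins in those 10 cells. The summed PANETH levels of that library thus describe mainly the 6 defensin-rich cells.

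In APC-KO replicate 2, with 274 PANETH cells, Defa21 and Defa22 came almost wholly from a single cell. This cell, with 7829 UMIs and a barcode found among the kept cells of no other library, held 161 of 162 UMIs of Defa21, 87 of 91 of Defa22 and 3 of 5 of Defa20. The next cell had 14 UMIs of the set outside Defa30, against 287 in this one. Without it Defa21 and Defa22 had 1 and 4 UMIs in the remaining cells, which is near the floor of 3 UMIs. Defa36 and Defa26 each had a UMI in 93 cells (33.9%), and in 12.0% and 13.5% of cells thinned to 2000 UMIs, against 0 and 1 of 276 TUFT cells.

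Per cell, the 7 genes held a median 36.3% and 40.2% of alpha-defensin UMIs in PANETH cells of WT with at least 20 such UMIs. The medians were 32.7% in APC-KO replicate 1 and 18.9% in APC-KO replicate 2. Without Defa30 the medians were 3.28% and 1.59% in WT and 2.62% and 0.0303% in APC-KO. The APC-KO replicate 1 medians cover 15 of its 16 PANETH cells. Most of those 15 are among the 10 cells with under 2% of UMIs in Defa genes. The medians of that library therefore do not describe its 6 defensin-rich cells.

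PANETH-PRE cells, whose name in the authors' tables was not expanded, held little of the set. The 7 genes held 3.27% and 5.24% of alpha-defensin UMIs in WT and 3.47% and 4.16% in APC-KO, so the genotypes overlapped. Defa30 stood at 2248 and 3219 CPM in WT and at 2593 and 1447 in APC-KO. Defa36 had 453 and 243 CPM in WT and 187 and 1.10 in APC-KO, and Defa26 stood at 372 and 304 CPM in WT and at 37.3 and 0.735 in APC-KO.

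Both APC-KO libraries were below both WT libraries for Defa36 and Defa26 in these cells, although the APC-KO replicate 1 values rest on 20 and 4 UMIs in 11 cells. Defa23 had 18 and 20 UMIs in WT and 0 in both APC-KO libraries. Defa21, Defa22 and Defa20 had 1 to 8 UMIs in each WT library and at most 1 in APC-KO. Relative to all alpha-defensin UMIs, Defa26 held 0.390% and 0.414% in the PANETH-PRE cells of WT and 0.563% and 0.506% in PANETH cells. Defa23 held 0.0306% and 0.0623% against 0.749% and 0.477%, and Defa30 held 2.36% and 4.38% against 29.9% and 37.3%. In both WT libraries the share of Defa26 thus differed less between the 2 cell names than those of Defa30 and Defa23.

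Outside Paneth cells, levels of the set were low. Summed over the 7 genes, PANETH cells of WT had 160918 ± 3236 CPM (SD, n = 2) and PANETH-PRE cells 3483 ± 520 (SD, n = 2). The other 10 cell types had means from 445 CPM in ENTERO-PRO to 845 ± 286 CPM (SD, n = 2) in ISC, and any neighbours in that order of 10 overlapped between the WT libraries. Barcodes of 1 to 50 UMIs were taken here as free RNA. They had 7989 and 14543 CPM in WT and 4015 and 5070 in APC-KO, above all 10 types. These levels were also above those of PANETH-PRE cells, at 3115 and 3851 CPM in WT and 2826 and 1450 in APC-KO. The part of free RNA in the PANETH-PRE values was not tested. Defa30 had a UMI in 83.1% and 88.6% of TUFT cells of WT, so a UMI of Defa30 in another cell type is not read here as expression.

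**Figure D5:**
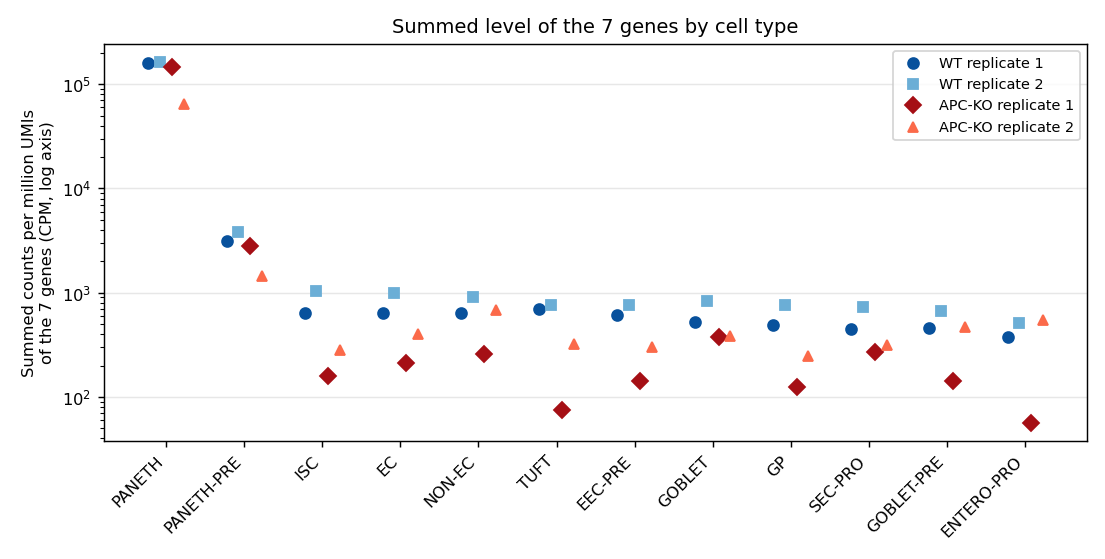
Summed level of the 7 genes in UMIs per 1e6 UMIs (log axis) in each of the 12 cell types named by the authors, 1 point per library, ordered by the WT mean. PANETH cells stand highest and PANETH-PRE cells next, and the other 10 types lie at 1047 CPM or less in every library.

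In cells that the choice of genes did not use, the test across all genes gave no call on the set. In GOBLET cells 2 of the 7 genes could be tested, and edgeR called neither, where 0.0837% of all 5974 genes were called. Defa30 had a log2 difference of -0.94 (SE 0.31, adjusted p 0.320, edgeR) and Defa36 of -2.39 (SE 0.97, adjusted p 0.395, edgeR), both at an unadjusted p under 0.05, as were 669 of all genes, and the DESeq2 Wald test called neither. In GOBLET-PRE cells 6 could be tested and edgeR called none, where 0.00974% of 10272 genes were called. There 4 of the 6 had an unadjusted p under 0.05, as did 817 of all genes. Defa26 had 67 and 61 UMIs there in WT and 1 and 5 in APC-KO, Defa22 58 and 22 against 2 and 3, and Defa21 35 and 24 against 1 and 1. These 3 genes passed the filter through their WT counts, which favours a lower value in APC-KO. Defa23, with 51 and 49 UMIs against 4 and 1, and Defa36, with 91 and 54 against 17 and 0, also lay mostly in WT. So did Defa36 in GOBLET cells, with 14 and 15 against 3 and 0. In EC cells Defa36 had 39 and 14 against 4 and 1, and Defa23 19 and 10 against 0 and 0. The filter may favour a lower value for these as well. Nothing is read from the direction, p-values or calls of these genes in any of these cell types. The DESeq2 Wald test called Defa26 (-3.25, adjusted p 0.0222, DESeq2) among 38 of all genes. edgeR also called Defa26 in GOBLET-PRE without WT replicate 1, among 64 of all genes, and Defa22 and Defa26 without WT replicate 2, among 22. In EC cells 2 could be tested and edgeR called neither, where 0% of 8690 genes were called, with 729 at an unadjusted p under 0.05 and 13 called by the DESeq2 Wald test. Both of the set had an unadjusted p under 0.05 by edgeR, and the DESeq2 Wald test called Defa30 (-1.25, adjusted p 0.0480, DESeq2). edgeR called Defa23, Defa30 and Defa36 in EC without APC-KO replicate 1, among 405 of all genes, and Defa30 without APC-KO replicate 2, among 102. With the profile of barcodes of 1 to 50 UMIs taken off at 5% of each sum, Defa30 turned to 0.18 in GOBLET and 1.46 in GOBLET-PRE cells. A gene was set to 0 where the amount taken off exceeded its UMIs. This befell Defa30 in GOBLET-PRE cells of WT replicate 2 and APC-KO replicate 1, so nothing is read from the 1.46. The free RNA of these libraries differs in the same direction, and its part in these values was not tested beyond that subtraction.

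In free RNA the summed share of the 7 genes was within 5 percentage points of that in the PANETH cells of the same library, while the proportions of single genes were less alike. The 7 genes held 29.7% and 35.02% of alpha-defensin UMIs in barcodes of 1 to 50 UMIs in WT, and 30.8% and 20.6% in APC-KO. In barcodes of 51 to 200 UMIs they held 31.7% and 35.1% in WT and 29.6% and 18.5% in APC-KO. In both classes APC-KO replicate 2 was lowest, as in PANETH cells, and in barcodes of 1 to 50 UMIs APC-KO replicate 1 lay between the WT libraries. Defa36 made up 86.1%, 80.5%, 67.4% and 11.7% of its pair with Defa35 in barcodes of 1 to 50 UMIs, in the order WT 1, WT 2, APC-KO 1 and APC-KO 2, and 99.6%, 95.3%, 74.3% and 0.596% in barcodes of 51 to 200 UMIs. The former lie further from the values of PANETH cells in each library. In both, APC-KO 1 was below WT and above APC-KO 2. In APC-KO replicate 1 the 61859 barcodes of 51 to 200 UMIs held 62173 UMIs of the 7 genes, against 26521 in its 16 PANETH cells.

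The other genes of the Paneth programme gave a background for the set. Of 18 other granule genes, 16 were tested in the Paneth lineage, 2 fell and none rose, with a median log2 difference of -1.50 against 0.00 over all genes. Pnliprp2, a pancreatic lipase-related protein, fell by 2.69 (SE 0.37, adjusted p 0.0106, edgeR) on the log2 scale, and Sntb1, a syntrophin, fell by 4.14 (SE 0.60, adjusted p 0.0136, edgeR). Sntb1 was near the floor, at 10.0 and 8.38 CPM in WT and 0 and 0.876 in APC-KO. In PANETH cells these were 21, 21, 0 and 4 UMIs. In APC-KO replicate 1, 3 UMIs of the lineage would be 10.4 CPM, above both WT values, so its 0 there does not show a fall. Mmp7, the protease that activates alpha-defensins in the mouse, stood at 4619 and 6012 CPM in WT and at 3328 and 3605 in APC-KO (log2 -1.12, SE 0.41, adjusted p 0.225, edgeR). In PANETH cells alone the genotypes overlapped, at 4368 and 6124 CPM in WT and 3288 and 5067 in APC-KO. The lineage sums mix the 2 cell names unequally, with 602 PANETH-PRE cells of 876 in APC-KO replicate 2 and 98 of 298 in WT replicate 2. Lyz1, the Paneth lysozyme, had 29022 and 35342 CPM in WT and 13197 and 12134 in APC-KO (log2 -1.82, SE 0.52, adjusted p 0.130, edgeR). In the lineage sums the APC-KO libraries differed more for some other granule genes. Mptx1, a pentraxin, had 163 and 308 CPM in WT and 205 and 3.72 in APC-KO, and Itln1, an intelectin, had 43357 and 68030 CPM in WT and 27660 and 13023 in APC-KO. In PANETH cells alone Mptx1 had 215 and 2.17 CPM in APC-KO. There Itln1 had 35248 and 26736 CPM in APC-KO and Lyz1 18538 and 26970, so the wider gap of Itln1 was not seen.

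Of 16 regulators of Paneth cells, 15 were tested and none was called, with a median log2 difference of 0.01. Sox9, a transcription factor that Paneth cells need, stood at 190 and 174 CPM in WT and at 243 and 196 in APC-KO. Tcf7l2, the TCF factor of Wnt signalling in the gut, had 78.9 and 69.0 CPM in WT and 101 and 126 in APC-KO. Kcnn4, a potassium channel of Paneth cells, stood at 4.78 and 3.99 CPM in WT and at 17.4 and 23.4 in APC-KO (log2 1.64, SE 0.36, adjusted p 0.0680, edgeR). Nod2, a sensor of bacterial wall fragments, had too few UMIs to be tested.

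Genes whose level ran most like that of the summed set were ranked over 39 sums of a library and a cell type with at least 20 cells, by Pearson's r of log2(CPM + 1). The sums share libraries and free RNA, so r is a description. Defa30 reached 0.999, since it makes up most of the sum, and the other members 0.785 to 0.864. Among other genes outside the Defa symbols, AY761184 had 0.951, Mptx2 0.932, Pnliprp2 0.926, Lyz1 0.889 and Gm15293 0.871. Among other Defa genes Defa3 had 0.887, Defa17 0.861 and Defa34 0.857. Gm15293 had 1355 and 328 CPM in the PANETH cells of WT and 1354 and 12.5 CPM in those of APC-KO, and like Defa36 it was high in WT replicate 1 and APC-KO replicate 1, lower in WT replicate 2 and lowest in APC-KO replicate 2. Windows of Gm15293 recur in Defa5 and Defa34. AY761184 had 60825 and 50086 CPM in the PANETH cells of WT and 36027 and 12398 CPM in those of APC-KO. Its UMIs equalled 13.2% and 12.0% of those of the 22 Defa genes in WT and 8.41% and 3.89% in APC-KO. Genes were taken by symbol, so the shares of alpha-defensin UMIs leave AY761184 out.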

How the data were processed

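Libraries of sorted TOM+ duodenal crypt cells were made with the 10x 3' v3.1 chemistry, per the labels' protocols. Per the submitters' processing notes, Cell Ranger 3.0.2, STAR and mm10 were used; which gene annotation was used is not given in the sources used here. The deposited matrices hold raw UMI counts per gene and barcode, per the file headers. The authors also deposited tables of cells with UMI and gene counts, the mitochondrial percent, and other values (library and cell type names), which were used as given. How the authors filtered cells or treated doublets is not stated.

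UMIs were summed per library and cell type and expressed as CPM. Sums were compared with edgeR 4.0.16 (TMM, filterByExpr, quasi-likelihood test, Benjamini-Hochberg adjustment over all genes, threshold 0.05), with DESeq2 1.42.0 as an alternative, in R 4.3.3. PANETH and PANETH-PRE cells were summed because PANETH had under 20 cells in a library. Counting intervals are exact 95% and cover counting error only. The SE given with edgeR is the size of the log2 difference divided by the square root of the test's F value. It is not a fitted standard error. The p-values weigh the genotype difference against the spread between these libraries, which is estimated in part over all genes. The labels give no animal for a library, so they are not read as covering the spread between animals. Tested on simulated data with changes of 2 on the log2 scale, the Paneth lineage fit recovered 87.4% of changed genes over 8612 genes. The simulation gave every gene the same spread between libraries (dispersion 0.05) and changed only genes with an expected mean of at least 20 UMIs. Genes that spread more between libraries were not simulated, so this share is not the recovery to be had for them. Gene models came from GENCODE vM21, which matched the IDs of all 22 Defa genes, and promoters from RefSeq, which matched 12.

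The 7 genes, the gene lists and the tests were chosen with earlier results of these data known. Named were the 7 genes, the 5 other Defa genes with the highest mean CPM in the Paneth lineage, the 5 non-Defa and 3 Defa genes most like the summed set, Mmp7, Lyz1, Sox9, Tcf7l2, Nod2 and Kcnn4. Other genes (Defa27, Sntb1, Mptx1, Itln1, Cd74, Ptprc, Cd3e and the exact or near copies) were named after their values were seen. Alternatives were other size factors and tests, no filter, the replicate block, each library left out, Defa genes out of the library size, other cell sets and depths, and free RNA subtracted. Subtraction of the profile of barcodes of 51 to 200 UMIs and the removal of 1 cell were added after seeing the data.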

Additional observations from a re-analysis of the deposited data

How the results depend on the processing

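Each value rests on 2 libraries a genotype. In APC-KO replicate 1 the UMIs of the 7 genes in PANETH cells came mainly from 6 defensin-rich cells. The number of the 7 genes called in the Paneth lineage was 2. It was 1 with the DESeq2 Wald test, which gave no adjusted p to Defa20 (log2 -6.29) or to 8002 of all 8599 genes. It was 1 with free RNA subtracted and 1 without the single APC-KO replicate 2 cell, where Defa22 had larger differences of -7.12 and -6.23 against -5.71 but adjusted p of 0.0624 and 0.102 (edgeR). It was 5 with no filter and 4 with PANETH cells alone, and ranged from 0 to 7 with a library left out. It was 3 of 4 tested with PANETH-PRE cells alone. In GOBLET-PRE the number was 0. It was 1 with the DESeq2 Wald test, 5 with no filter, and 0 to 2 with a library left out. In EC it was 0. It was 1 with the DESeq2 Wald test, 3 with no filter, and 0 to 3 with a library left out. Over all genes of the Paneth lineage 57 were called. The count was 38 with the DESeq2 Wald test, 477 with no filter, 124 with free RNA subtracted, 122 with the profile of barcodes of 51 to 200 UMIs subtracted, 98 and 85 with PANETH or PANETH-PRE cells alone, and 0 to 461 with a library left out. In GOBLET 5 were called, 79 with no filter, 3 with free RNA subtracted and 0 to 21 with a library left out; in GOBLET-PRE 1, 38 with the DESeq2 Wald test, 280 with no filter, 0 with free RNA subtracted and 7 to 64 with a library left out; in EC 0, 13 with the DESeq2 Wald test, 174 with no filter and 0 to 405 with a library left out. None of the 7 was called in GOBLET under the alternatives run, and none could be tested in GOBLET-PRE or EC with the profile of barcodes of 51 to 200 UMIs subtracted. The causes were not tested.

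With the replicate number as a block, the number of the 7 genes called was 4 in the Paneth lineage and 3 in GOBLET-PRE, and over all genes it was 124 in the Paneth lineage, 73 in GOBLET, 110 in GOBLET-PRE and 0 in EC. The deviations of same-numbered libraries correlated at 0.00 in the Paneth lineage, -0.02 in GOBLET, -0.02 in GOBLET-PRE and -0.05 in EC. Each value rests on a single difference per genotype and the labels give no batch. It therefore cannot tell whether same-numbered libraries were paired.

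The set's share of alpha-defensin UMIs in the lineage was 10.4 percentage points higher in WT, 0.440 with PANETH-PRE cells alone, and 3.80 to 16.9 with a library left out, the lowest without APC-KO replicate 2. In free RNA it was 6.65 points higher, and 1.54 to 11.8 with a library left out. The log2 ratio of the summed CPM was -1.05, and -2.21 to -0.42 with a library left out, the ends being without replicate 1 and replicate 2 of APC-KO. The value of Defa30 in GOBLET turned from -0.94 to 0.18 and 7.09 with the profiles of barcodes of 1 to 50 and of 51 to 200 UMIs subtracted. In GOBLET-PRE it turned from -0.70 to 1.46 with the former. The 7.09 follows from the subtraction setting Defa30 to 0 in both WT libraries. For the 1.46 it was set to 0 in WT replicate 2 and APC-KO replicate 1. Neither of these 2 values is read as a reversal. Defa36 in the Paneth lineage reversed from -0.86 to 0.15 without APC-KO replicate 2 and to 0.19 without WT replicate 1, within a range of -7.27 to 0.19 with a library left out. The other values kept their direction.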

Other observations

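Barcodes of over 10000 UMIs that the authors' tables did not keep numbered 947 and 921 in WT and 1684 and 535 in APC-KO. In them the 7 genes held 29.9% and 35.95% of alpha-defensin UMIs in WT, and 14.9% and 17.2% in APC-KO replicates 1 and 2. The value of APC-KO replicate 1 was thus lower than the 34.2% in its kept PANETH cells, while the other 3 libraries were within 5 percentage points. Defa36 made up 46.0% of its pair with Defa35 in these barcodes of APC-KO replicate 1, against 72.2% in its PANETH cells. It made up 99.5% and 99.3% in WT and 0.684% in APC-KO replicate 2.

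Defa21 and Defa22 did not follow the Paneth cells in the emptiest barcodes. In barcodes of 1 to 50 UMIs their UMIs together numbered 1216 and 1266 in WT and 1580 and 1028 in APC-KO, a similar number in all 4 libraries. They were 4.08% and 2.26% of alpha-defensin UMIs there in WT and 6.47% and 3.18% in APC-KO, against 1.52% and 0.283% in the PANETH cells of WT and 0.139% and 0.0430% in those of APC-KO. In barcodes of 51 to 200 UMIs the numbers were 3778 and 2388 in WT and 1141 and 77 in APC-KO, lower in both APC-KO libraries than in both WT libraries. Defa20 had 13 and 20 UMIs in WT and 18 and 22 in APC-KO in barcodes of 1 to 50 UMIs, and 64 and 15 in WT and 0 in both APC-KO libraries in barcodes of 51 to 200 UMIs. Defa23 had 147 and 242 UMIs in WT and 125 and 18 in APC-KO in barcodes of 1 to 50 UMIs.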
